A study of Mus musculus with 16 samples.

Results

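The genes that build cholesterol and fatty acids were followed in small intestinal organoids with and without the autophagy gene Atg16l1 and with and without IL-22, a cytokine that acts on the gut epithelium. A list of 35 genes was named by their place in these pathways, with earlier results of these data known. It was looked up by symbol among the 49585 genes of the count table. All 35 passed the filter on low counts that left 12559 genes for testing. The list holds 7 genes of the mevalonate steps, 11 of the steps from squalene to cholesterol, 6 regulators and sterol carriers, and 11 of fatty acid synthesis, elongation and desaturation. RNA sequencing covered 16 cultures in 4 groups of 4: untreated Atg16l1 fl/fl organoids, Atg16l1 fl/fl organoids given IL-22, untreated Atg16l1 ΔIEC organoids and Atg16l1 ΔIEC organoids given IL-22, with IL-22 at 10 ng/ml for 24 h. Both genotypes carry floxed Atg16l1 alleles. The ΔIEC organoids also carry villin-cre, which deletes the gene in intestinal epithelial cells, and the fl/fl controls lack cre. The study kept its mice on a C57BL/6 background and used them at 8 to 12 wk. Each genotype was represented by 2 organoid lines with 2 cultures per line and treatment, and within a group the cultures numbered 1 and 2 belong to one line and those numbered 3 and 4 to the other. Nothing in the labels says that the 2 cultures of a line were independent beyond the culture itself, and p-values measure the spread between cultures. Each line has a single genotype, so a comparison of genotypes rests on 2 lines against 2, and its counts are also given with the cultures of each line summed.

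Cells regulate sterol and fatty acid synthesis largely through the sterol regulatory element–binding proteins (SREBPs), transcription factors made as membrane-bound precursors in the ER. The escort protein SCAP carries the precursor to the Golgi, where proteases release the active factor, and the INSIG proteins hold SCAP in the ER when sterols are plentiful. SREBP-2, encoded by Srebf2, is best known for cholesterol synthesis genes, and SREBP-1, encoded by Srebf1, for fatty acid synthesis genes. The small intestine makes cholesterol itself, takes it up from food and packs lipid into lipoproteins, and its dividing crypt cells need membrane lipid.

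Promoter sequences from RefSeq (GRCm38.p6, 250 bases before to 50 after each listed start) were found for 28 of the 35 genes and were not used here for Fdps, Fdft1, Sqle, Stard4, Scd1, Scd2 and Fads1. They were searched on both strands for 4 motifs linked to SREBP target genes: the core of a sterol regulatory element (TCACNCCAC, where N is any base), the E-box CACGTG, the NF-Y box CCAAT and the Sp1 box GGGCGG. The sterol regulatory element core was present in 1 of the 28 genes (3.57%, against 1.44% of 27025 genes with a promoter), that of Hmgcs1, which encodes the synthase that makes HMG-CoA. The E-box was in 6 of 28 (21.4%, against 8.09%). CCAAT was in 23 of 28 (82.1%, against 41.1%), and GGGCGG also in 23 of 28 (82.1%, against 38.2%). The 28 genes all passed the filter on low counts, while the 27025 were not limited to genes that did. No share over tested genes was worked out, so these differences cannot be told apart from a difference between expressed and other genes. The matches are descriptions of these letters in these windows, and genes with several listed starts were counted as holding a motif if any start did. The Hmgcs1 promoter is shown because it holds the core, and the Insig1 promoter because Insig1 had the smallest p among the genes that changed and whose promoter was at hand. Capitals mark matches to any of the 4 motifs on either strand, and no match overlaps another in either sequence.
Hmgcs1, chr13:119690101-119690400, plus strand, GRCm38.p6: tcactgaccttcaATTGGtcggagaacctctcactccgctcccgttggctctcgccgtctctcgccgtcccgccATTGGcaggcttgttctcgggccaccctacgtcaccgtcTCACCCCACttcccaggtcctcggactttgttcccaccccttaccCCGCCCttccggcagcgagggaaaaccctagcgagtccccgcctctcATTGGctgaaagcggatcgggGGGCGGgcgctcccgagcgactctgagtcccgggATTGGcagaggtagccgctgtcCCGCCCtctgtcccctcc
Insig1, chr5:28071162-28071461, plus strand, GRCm38.p6: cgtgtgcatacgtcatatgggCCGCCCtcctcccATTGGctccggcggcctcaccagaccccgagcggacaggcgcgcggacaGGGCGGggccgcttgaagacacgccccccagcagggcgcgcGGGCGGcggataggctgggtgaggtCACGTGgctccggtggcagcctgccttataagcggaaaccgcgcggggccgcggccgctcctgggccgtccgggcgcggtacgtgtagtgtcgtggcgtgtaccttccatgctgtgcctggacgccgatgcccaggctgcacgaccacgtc
In Hmgcs1 the core reads TCACCCCAC and begins 137 bases before the start, with 4 CCAAT and 3 GGGCGG matches around it. In Insig1 there was 1 E-box, 1 CCAAT and 3 GGGCGG matches. The only Acaca window (chr11:84195188-84195487), which holds none of the 4 motifs, lies inside the annotated gene (chr11:84129672-84401651, plus strand). The sequence at the first annotated base of Acaca was not searched. Of the 23 genes with a CCAAT match, 6 were lower with IL-22 in both genotypes by the test described below, and of the 5 without (Acaca, Acat2, Elovl6, Fads2 and Scap), 3 were. For GGGCGG the counts were 8 of 23 with and 1 of 5 without, for the E-box 2 of 6 and 7 of 22, and for the core 0 of 1 and 9 of 27, where 5.45% of all tested genes were lower in both. These small counts show no common direction across the motifs.

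Counts on genes ranged from 2135000 to 5574860 per culture with a median of 3499276, and the lowest count of any of the 35 genes in any culture was 31, for Fdps. Levels are in CPM, that is counts scaled to a library of 1000000 with TMM-scaled library sizes. Atg16l1 stood at 31.6 to 51.8 CPM over the 8 fl/fl cultures and at 0.289 to 5.96 CPM over the 8 ΔIEC cultures, so every culture matched its genotype label. Markers of epithelial cell types other than tuft cells were abundant, while the 7 tuft markers summed to between 12.8 and 35.7 CPM per culture. Of 8 stromal and endothelial markers none passed the filter, with Dcn and Cdh5 at 0 counts in every culture, and of 8 immune markers 4 passed, none changed in any comparison by edgeR, and Cd3e was at 0 counts. The first IL-22–treated ΔIEC culture stood apart from the other 3 of its group (chi-square per degree of freedom over genes 7.35 to 11.6, against 2.39 to 7.13 among those 3), and counts without it are given below.

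IL-22 lowered a large share of these genes in both genotypes. The question of the comparison was how the epithelium responds to IL-22 with and without Atg16l1. In fl/fl organoids 14 of the 35 genes fell and 4 rose, and in ΔIEC organoids 18 fell and 2 rose. Among the genes that fell were Scd1, a stearoyl-CoA desaturase, which went from 827 ± 88.8 CPM to 322 ± 43.4 CPM in fl/fl (SD, n = 4) and from 622 ± 49.7 CPM to 179 ± 25.8 CPM in ΔIEC organoids, Dhcr7, the last enzyme of one branch of cholesterol synthesis, and Insig1. Insig2, the paralogue of Insig1, rose in both. A gene was counted as changed when its adjusted p in edgeR's quasi-likelihood test was under 0.01, with Benjamini-Hochberg adjustment over the 12559 genes. Of all tested genes, 10.2% were lower and 10.6% higher with IL-22 in fl/fl organoids, against 40.0% and 11.4% of the 35. In ΔIEC organoids 7.65% of all genes were lower and 9.83% higher, against 51.4% and 5.71% of the 35. The median log2 fold change of the 35 was -0.22 in fl/fl and -0.37 in ΔIEC organoids, beside -0.05 and -0.01 over all tested genes.

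Summed over the 35 genes, the level was 13992, 13546, 15454 and 14957 CPM in the untreated fl/fl cultures and 11299, 11771, 12008 and 10890 CPM with IL-22. In ΔIEC organoids it was 12219, 12606, 12161 and 12579 CPM untreated and 9419, 9563, 9254 and 9140 CPM with IL-22. The treated and untreated sums did not overlap in either genotype, and the ΔIEC sums lay below the fl/fl sums at each treatment. Scd2 alone gives 24.7% of this sum in untreated fl/fl organoids. Its mean was 3580 CPM there and 2622 CPM in untreated ΔIEC organoids, beside mean sums of 14487 and 12391 CPM. The gap between genotypes in the untreated sums therefore rests in large part on this gene. Per kilobase of exon, levels in untreated fl/fl organoids ran from 6.29 CPM per kb for Fdps to 655 for Scd2, with Insig1 (254), Hmgcs1 (235) and Cyp51 (205) next below Scd2 and Acaca (8.22) next above Fdps. Both Fdps and Acaca share sequence with other annotated genes, so their low levels are uncertain.

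**Figure D1:**
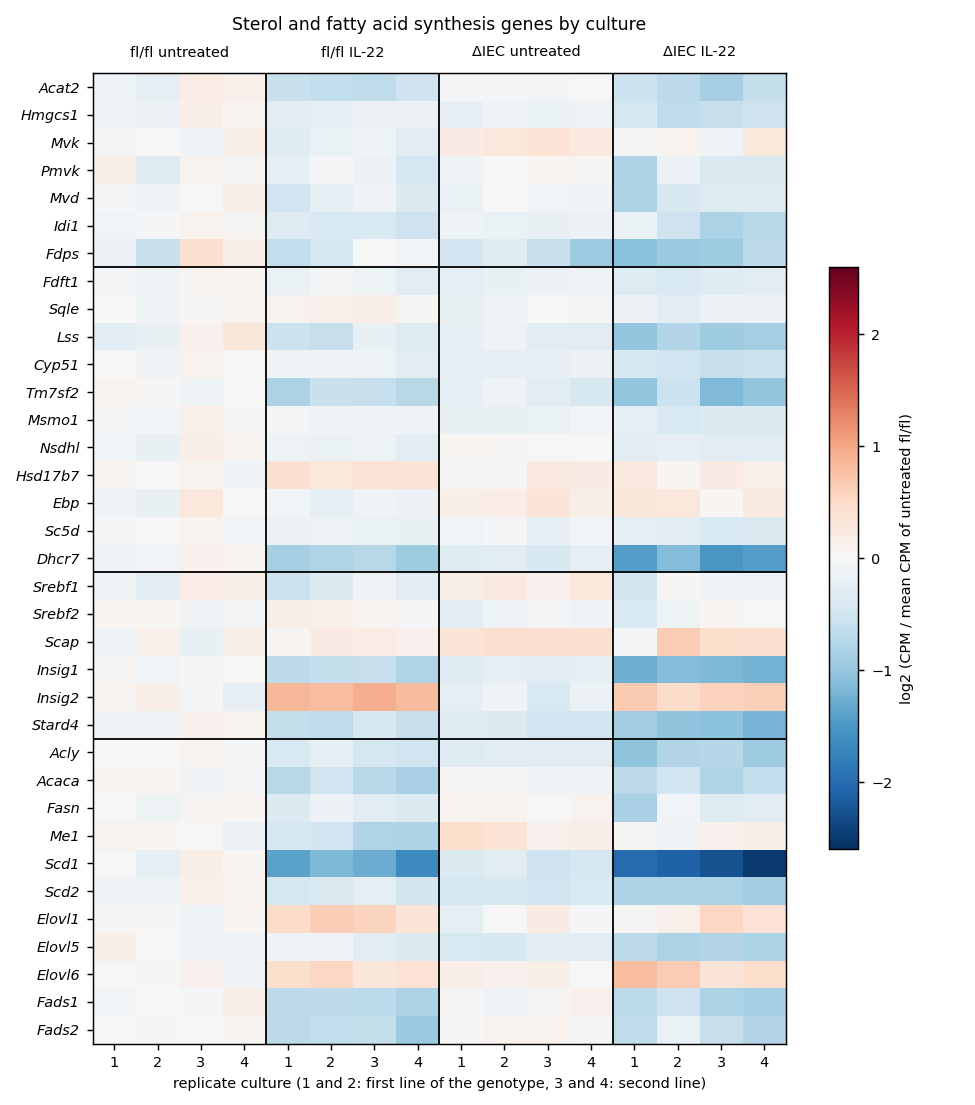
Each row is 1 of the 35 genes, each column 1 of the 16 cultures, and colour gives log2 of the level (CPM) over the mean of the untreated fl/fl cultures, with black lines between groups and between the 4 roles (mevalonate steps, squalene to cholesterol, regulators and carrier, fatty acid genes). Both IL-22 blocks are mostly blue, with Scd1 the deepest, while Insig2 and Elovl6 are red in all 8 treated cultures.

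The mevalonate steps turn acetyl-CoA into the isoprenoid units of sterols. All 7 genes had a log2 fold change below 0 with IL-22 in both genotypes, of which 2 passed the threshold in fl/fl (Acat2 and Idi1) and 3 in ΔIEC organoids (Acat2, Hmgcs1 and Idi1). Acat2, the thiolase that joins the first acetyl units, stood at 179, 163, 224 and 213 CPM untreated and 131, 125, 124 and 134 CPM with IL-22 in fl/fl organoids. In ΔIEC organoids it stood at 189, 189, 187 and 195 CPM untreated and 133, 122, 108 and 126 CPM with IL-22. Every treated culture lay below every untreated culture of its genotype. The log2 fold change (± SE) was -0.60 ± 0.090, adjusted p = 4.22e-05 in fl/fl and -0.64 ± 0.091, adjusted p = 2.28e-05 in ΔIEC organoids. Acat2 shares 28.9% of its 100-base stretches with other annotated genes, Acat3 and Tcp1, so its counts are uncertain where reads could be split. Hmgcs1, next in the pathway, stood at 931, 1006, 965 and 982 CPM untreated and 787, 680.3, 710.2 and 748 CPM with IL-22 in ΔIEC organoids, with no overlap. It fell there by 24.7% (log2 -0.41 ± 0.076, adjusted p = 0.00041). The fl/fl cultures had 1013, 973, 1222 and 1115 CPM untreated and 878, 922, 966 and 977 CPM with IL-22, and the highest treated culture lay just above the lowest untreated one. There the difference was -0.21 ± 0.076, adjusted p = 0.0437, and 0.00819 with organoid line as a block but 0.266 with the cultures of a line summed.

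Idi1, the isomerase that makes the reactive isoprenoid unit, went from 601 ± 33.4 CPM to 451 ± 27.8 CPM in fl/fl (log2 -0.41 ± 0.10, adjusted p = 0.00436) and from 539.8 ± 12.6 CPM to 413 ± 86.6 CPM in ΔIEC organoids (-0.39 ± 0.10, adjusted p = 0.00774). The treated ΔIEC cultures stood at 533, 416, 338 and 364 CPM, and the first of them overlapped the untreated group. Its call was lost in 8 of 26 alternative fits in fl/fl and in 11 of 26 in ΔIEC organoids, and 21.9% of its stretches are shared with other annotated genes. Mvd, the mevalonate diphosphate decarboxylase, was at 238 ± 18.9 CPM and 193 ± 23.2 CPM in fl/fl (-0.30 ± 0.10, adjusted p = 0.0294, and 0.00351 with the line block but 0.145 with the cultures of a line summed) and at 225 ± 10.6 CPM and 174 ± 25.8 CPM in ΔIEC organoids (-0.37 ± 0.10, adjusted p = 0.0106, and 0.000595 with the block but 0.09 with the cultures of a line summed). The kinases Mvk and Pmvk gave -0.22 ± 0.10 and -0.21 ± 0.12 in fl/fl and -0.21 ± 0.10 and -0.40 ± 0.12 in ΔIEC organoids, and none of these passed the threshold. Pmvk in ΔIEC organoids had adjusted p = 0.0186, and 0.00437 with the block but 0.0522 with the cultures of a line summed. Fdps, which makes farnesyl diphosphate, had the lowest counts of the 35 and shares 21.4% of its stretches with Gm3571, Gm43738 and Gm5873, so its level is uncertain where reads could be split. It stood at 26.5 ± 7.48 CPM and 22 ± 4.53 CPM in fl/fl and 17.9 ± 3.21 CPM and 14.2 ± 1.67 CPM in ΔIEC organoids, and its interval with IL-22 in fl/fl organoids ran from -0.62 to 0.18 on the log2 scale.

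From squalene to cholesterol, 3 of 11 genes fell with IL-22 in fl/fl (Lss, Tm7sf2 and Dhcr7) and 5 of 11 in ΔIEC organoids (those and Cyp51 and Nsdhl), and Hsd17b7 rose in fl/fl organoids. Dhcr7, which reduces 7-dehydrocholesterol to cholesterol (GRCm38 chr7:143823145-143848410, plus strand), had the largest change of these genes. It stood at 238, 247, 282 and 268 CPM untreated and 142, 151, 157 and 135 CPM with IL-22 in fl/fl organoids. In ΔIEC organoids it stood at 209, 212, 194 and 221 CPM untreated and 95.6, 118, 90.1 and 95.5 CPM with IL-22. The groups were well separated, and the highest treated ΔIEC culture lay below the lowest treated fl/fl culture. Dhcr7 fell by 43.2% in fl/fl (log2 -0.82 ± 0.085, adjusted p = 5.91e-07) and fell by 52.2% in ΔIEC organoids (-1.06 ± 0.088, adjusted p = 2.28e-08). Tm7sf2, a sterol reductase of the ER, stood at 101, 97.7, 88.8 and 94.2 CPM untreated and 54.2, 64.3, 62.7 and 58.1 CPM with IL-22 in fl/fl organoids. Its ΔIEC cultures had 81.6, 87.1, 78 and 71.4 CPM untreated and 46.6, 64.8, 43.2 and 47.2 CPM with IL-22. Treated and untreated cultures did not overlap in either genotype, and the changes were -0.67 ± 0.11, adjusted p = 7.19e-05 and -0.66 ± 0.11, adjusted p = 0.00013. Tm7sf2 overlaps Vps51 on the same strand and shares 7.92% of its stretches with it.

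Lss, lanosterol synthase, closes squalene epoxide into the first sterol. It stood at 292, 314, 389.9 and 443 CPM untreated and 244, 236, 313 and 285 CPM with IL-22 in fl/fl organoids, and at 312, 326, 299 and 296 CPM untreated and 178, 213, 188 and 194 CPM with IL-22 in ΔIEC organoids. The fl/fl groups overlapped, with the lowest untreated culture below the highest treated one, while the ΔIEC groups did not. The log2 fold change was -0.41 ± 0.11, adjusted p = 0.0086 in fl/fl, a call lost in 17 of 26 alternative fits, and -0.67 ± 0.12, adjusted p = 0.000178 in ΔIEC organoids. Cyp51, the lanosterol demethylase, stood at 763, 761, 779 and 818 CPM untreated and 682, 632, 598 and 614 CPM with IL-22 in ΔIEC organoids, with no overlap (-0.31 ± 0.067, adjusted p = 0.00174). In fl/fl organoids it was at 905 ± 42.7 CPM and 812 ± 43.5 CPM, also with no overlap (-0.16 ± 0.067, adjusted p = 0.0813). Nsdhl, a sterol dehydrogenase, went from 162 ± 3.35 CPM to 133 ± 3.3 CPM in ΔIEC organoids (-0.29 ± 0.075, adjusted p = 0.00707), a call lost in 13 of 26 alternative fits. Hsd17b7, the reductase of the same demethylation complex, was 94.7 ± 5.35 CPM and 120.1 ± 3.86 CPM in fl/fl organoids (0.34 ± 0.079, adjusted p = 0.0022), without overlap between the groups, and 103 ± 9.83 CPM and 106 ± 6.56 CPM in ΔIEC organoids (0.05 ± 0.079, adjusted p = 0.704).

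Sqle, squalene epoxidase, a rate-limiting step of the sterol branch, was at 484 ± 26.3 CPM and 524 ± 22.1 CPM in fl/fl and at 457 ± 23.6 CPM and 426 ± 19.8 CPM in ΔIEC organoids, and neither change passed the threshold (0.11 ± 0.067 and -0.10 ± 0.067). Its 95% intervals, -0.03 to 0.26 in fl/fl and -0.25 to 0.05 in ΔIEC organoids, do not reach the size of the Dhcr7 change. Fdft1, squalene synthase, gave -0.16 ± 0.066 and -0.16 ± 0.066, Msmo1 gave -0.08 ± 0.066 and -0.19 ± 0.066, Sc5d gave -0.16 ± 0.065 and -0.23 ± 0.065, and Ebp gave -0.13 ± 0.10 and 0.00 ± 0.095, all short of the threshold. Sc5d in ΔIEC organoids had adjusted p = 0.0118, and 0.00335 with organoid line as a block but 0.172 with the cultures of a line summed. Fdft1 overlaps Ctsb on the other strand and shares 18.3% of its stretches with other genes, and Cyp51 overlaps Akap9. The strand setting of the authors' counting is not given in the sources used here, so reads of such pairs cannot be told apart.

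Among the regulators, the INSIG paralogues went in opposite directions. Insig1 (GRCm38 chr5:28071363-28078662, plus strand), itself a classic SREBP target, stood at 803, 746, 804 and 784 CPM untreated and 491, 511, 515 and 458 CPM with IL-22 in fl/fl organoids. In ΔIEC organoids it stood at 623, 666, 647 and 672 CPM untreated and 327, 357, 348 and 336 CPM with IL-22. Its groups were tight and did not overlap, and it fell by 37.0% in fl/fl (log2 -0.67 ± 0.063, adjusted p = 1.7e-07) and fell by 47.5% in ΔIEC organoids (-0.93 ± 0.064, adjusted p = 1.78e-09). Insig2 (GRCm38 chr1:121304353-121332589, minus strand), the isoform less tied to SREBP, stood at 67.5, 72.7, 63 and 55.6 CPM untreated and 118, 112, 124 and 114 CPM with IL-22 in fl/fl organoids. Its ΔIEC cultures had 54.9, 60.8, 49.5 and 58.6 CPM untreated and 103, 90.3, 97.9 and 99.5 CPM with IL-22. All 8 treated cultures lay above all 8 untreated ones. Insig2 rose 1.81-fold in fl/fl (log2 0.86 ± 0.088, adjusted p = 4.83e-07) and 1.74-fold in ΔIEC organoids (0.80 ± 0.090, adjusted p = 1.47e-06). Per kilobase of exon, Insig1 was the more abundant of the pair in every group, at 159.6 against 33.8 CPM per kb in treated fl/fl and 111 against 28.1 in treated ΔIEC organoids.

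Stard4, a soluble sterol carrier, stood at 596, 618, 706 and 704 CPM untreated and 428, 415, 493 and 435 CPM with IL-22 in fl/fl organoids. In ΔIEC organoids it stood at 517, 513, 460.4 and 467 CPM untreated and 351, 318, 315 and 282 CPM with IL-22. Treated cultures were below untreated ones throughout each genotype, with changes of -0.57 ± 0.083, adjusted p = 3.37e-05 and -0.63 ± 0.084, adjusted p = 1.08e-05. The transcripts of the SREBP machinery itself did not pass the threshold with IL-22 in either genotype. Srebf2 was at 458 ± 24.2 CPM and 483 ± 27.4 CPM in fl/fl and 417 ± 30.0 CPM and 425 ± 57.2 CPM in ΔIEC organoids (95% intervals of the log2 change -0.12 to 0.27 and -0.16 to 0.22). Scap was at 69.7 ± 8.02 CPM and 77 ± 3.98 CPM in fl/fl and 92.5 ± 3.19 CPM and 91.6 ± 17.9 CPM in ΔIEC organoids (intervals -0.11 to 0.39 and -0.25 to 0.24). Srebf1 was at 111 ± 16.8 CPM and 89.3 ± 11.8 CPM in fl/fl (-0.30 ± 0.12, adjusted p = 0.0538, and 0.00571 with the line block but 0.208 with the cultures of a line summed) and at 128 ± 7.05 CPM and 100.0 ± 14 CPM in ΔIEC organoids (-0.35 ± 0.12, adjusted p = 0.0279, and 0.00165 with the block but 0.161 with the cultures of a line summed). RNA levels do not show how much of either factor was cleaved, which was not measured in these libraries.

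**Figure D2:**
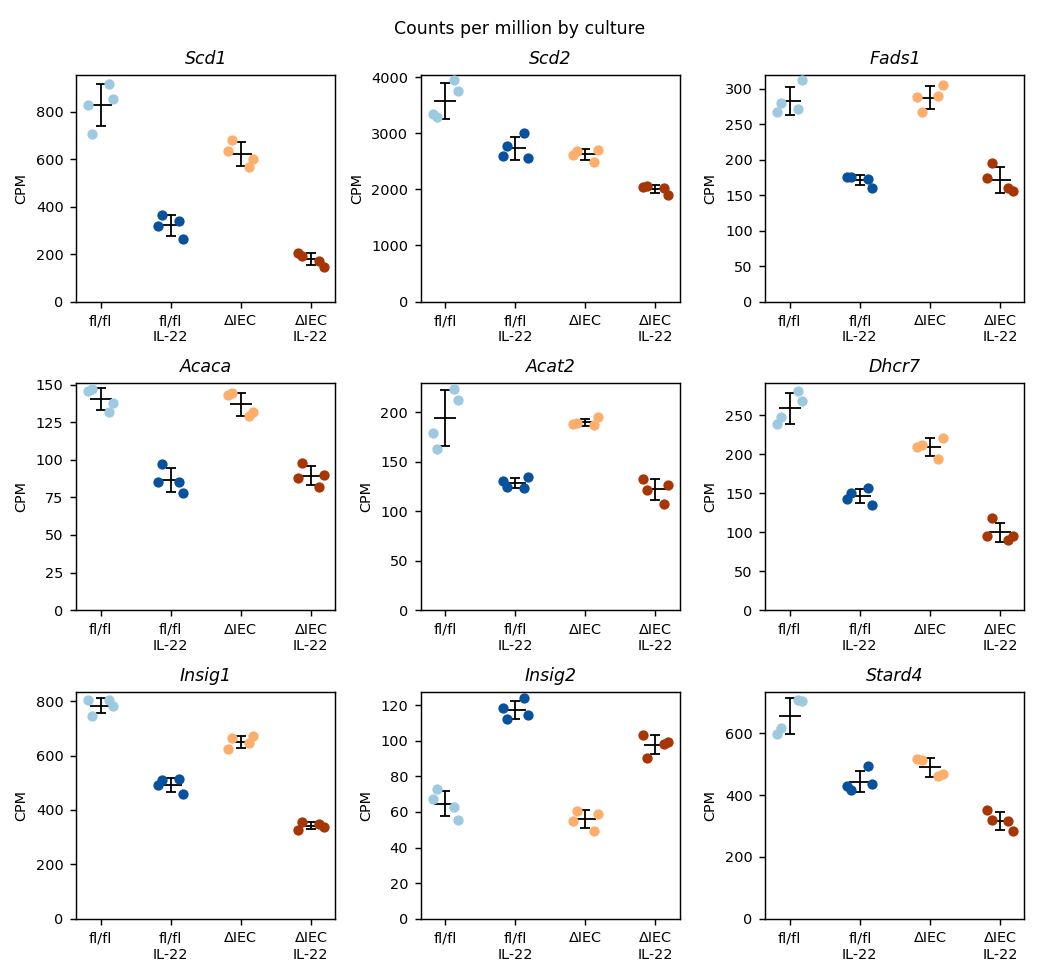
CPM (vertical axis, from 0) of 9 of the genes in the 4 groups, where points are cultures (first line to the left and second line to the right of each group) and bars are mean ± SD of 4. For all 9 genes the treated and untreated cultures of a genotype separate, downward for 8 and upward for Insig2.

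The fatty acid genes held the largest change and the largest count, with 7 of 11 lower and 2 higher in fl/fl organoids and 8 lower and 1 higher in ΔIEC organoids. Scd1 (GRCm38 chr19:44394455-44407879, minus strand) puts the first double bond into saturated fatty acids. It stood at 830.1, 707, 919 and 854 CPM untreated and 318, 366, 340.3 and 264 CPM with IL-22 in fl/fl organoids. In ΔIEC organoids it stood at 636, 683, 566 and 603 CPM untreated and 206, 193, 171 and 147 CPM with IL-22. No treated culture came near an untreated one of its genotype, and every treated ΔIEC culture lay below every treated fl/fl culture. Scd1 fell by 61.0% in fl/fl (log2 -1.36 ± 0.11, adjusted p = 2.34e-08) and fell by 71.2% in ΔIEC organoids (-1.80 ± 0.12, adjusted p = 5.68e-10). By line, the log2 change was -1.17 and -1.55 in the fl/fl lines and -1.73 and -1.88 in the ΔIEC lines. Scd2 (GRCm38 chr19:44293674-44306864, plus strand), its neighbour and the most abundant of the 35, changed less. It stood at 3341, 3285, 3944 and 3750 CPM untreated and 2590, 2773, 3012 and 2566 CPM with IL-22 in fl/fl organoids, and at 2618, 2676, 2485 and 2709 CPM untreated and 2034, 2056, 2029 and 1900 CPM with IL-22 in ΔIEC organoids. The groups of each genotype did not overlap, and the changes were -0.39 ± 0.074, adjusted p = 0.000488 and -0.39 ± 0.075, adjusted p = 0.000545.

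Acly and Acaca supply the building blocks, cytosolic acetyl-CoA and malonyl-CoA, and Fasn joins them into palmitate. Acly stood at 468, 471, 498 and 458 CPM untreated and 360.3, 405, 343 and 329 CPM with IL-22 in fl/fl and at 374, 385, 386 and 389.6 CPM untreated and 228, 278, 284 and 251 CPM with IL-22 in ΔIEC organoids, with no overlap in either. It changed by -0.40 ± 0.078, adjusted p = 0.000569 and -0.56 ± 0.079, adjusted p = 2.04e-05. Acaca stood at 146, 147, 132 and 138 CPM untreated and 85.1, 97.5, 85.4 and 77.9 CPM with IL-22 in fl/fl and at 143, 144, 129 and 132 CPM untreated and 87.9, 97.7, 82.2 and 89.7 CPM with IL-22 in ΔIEC organoids. Untreated levels were alike in the genotypes to within their SD, as were treated levels, and the falls were -0.70 ± 0.081, adjusted p = 2.17e-06 and -0.62 ± 0.081, adjusted p = 8.85e-06. Acaca shares 23.7% of its stretches with other annotated genes. Fasn was at 351 ± 20.9 CPM and 289 ± 19.9 CPM in fl/fl (-0.28 ± 0.11, adjusted p = 0.0553) and at 368 ± 8.93 CPM and 277 ± 58.6 CPM in ΔIEC organoids (-0.41 ± 0.11, adjusted p = 0.00851). The ΔIEC call for Fasn was lost in 18 of 26 alternative fits, and the first treated ΔIEC culture, at 196 CPM, was well below the other 3 (284 to 336 CPM). Me1, malic enzyme, which makes NADPH for this synthesis, stood at 80.3, 78.1, 74.3 and 68 CPM untreated and 55.8, 53.5, 43.5 and 42.9 CPM with IL-22 in fl/fl organoids with no overlap (-0.63 ± 0.11, adjusted p = 0.000144). Its ΔIEC cultures had 103, 96.7, 81.2 and 84.7 CPM untreated and 76.5, 70.2, 81.6 and 85.1 CPM with IL-22, where the treated cultures of the second line were level with the untreated ones (-0.23 ± 0.10, adjusted p = 0.101). Me1 shares 14.6% of its stretches with Gm48795, Gm7049 and Gm7329, so its counts are uncertain where reads could be split.

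The desaturases of polyunsaturated fatty acids fell together. Fads1 stood at 268, 279.7, 272 and 312 CPM untreated and 176, 176, 174 and 161 CPM with IL-22 in fl/fl and at 288, 267, 289.5 and 306 CPM untreated and 174, 195, 160.2 and 156 CPM with IL-22 in ΔIEC organoids. Fads2, next to it on chromosome 19, stood at 247, 236, 243 and 256 CPM untreated and 153, 158, 159 and 126 CPM with IL-22 in fl/fl and at 249.5, 262, 261 and 238 CPM untreated and 156, 216, 162 and 145 CPM with IL-22 in ΔIEC organoids. All treated cultures were below all untreated ones for both genes. Fads1 changed by -0.72 ± 0.079, adjusted p = 1.1e-06 and -0.75 ± 0.079, adjusted p = 6.9e-07, and Fads2 by -0.72 ± 0.10, adjusted p = 2.44e-05 and -0.57 ± 0.10, adjusted p = 0.000278. The elongases split. Elovl6, which extends palmitate to stearate, rose from 180.2 ± 11 CPM to 240.5 ± 17.3 CPM in fl/fl (0.42 ± 0.090, adjusted p = 0.00139) and from 195 ± 8.91 CPM to 268 ± 38.8 CPM in ΔIEC organoids (0.46 ± 0.090, adjusted p = 0.000692). Elovl1, an elongase of very long chains, rose from 112 ± 5.71 CPM to 159.7 ± 14.3 CPM in fl/fl (0.51 ± 0.11, adjusted p = 0.00106) and was at 112 ± 14 CPM and 137 ± 21.8 CPM in ΔIEC organoids (0.30 ± 0.11, adjusted p = 0.0427, and 0.00569 with the line block but 0.186 with the cultures of a line summed). Elovl1 overlaps the cell cycle gene Cdc20 on the other strand. Elovl5, the elongase of polyunsaturated chains, stood at 139, 136, 148 and 149.9 CPM untreated and 114, 103, 107 and 102 CPM with IL-22 in ΔIEC organoids with no overlap (-0.43 ± 0.081, adjusted p = 0.000496). Its fl/fl cultures had 202, 182, 172 and 171 CPM untreated and 168, 171, 147 and 141 CPM with IL-22. These did not overlap either, though the closest were 171.2 CPM untreated and 170.6 CPM treated. The fl/fl change was -0.22 ± 0.079, adjusted p = 0.0388, and 0.00668 with the block but 0.27 with the cultures of a line summed.

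**Figure D3:**
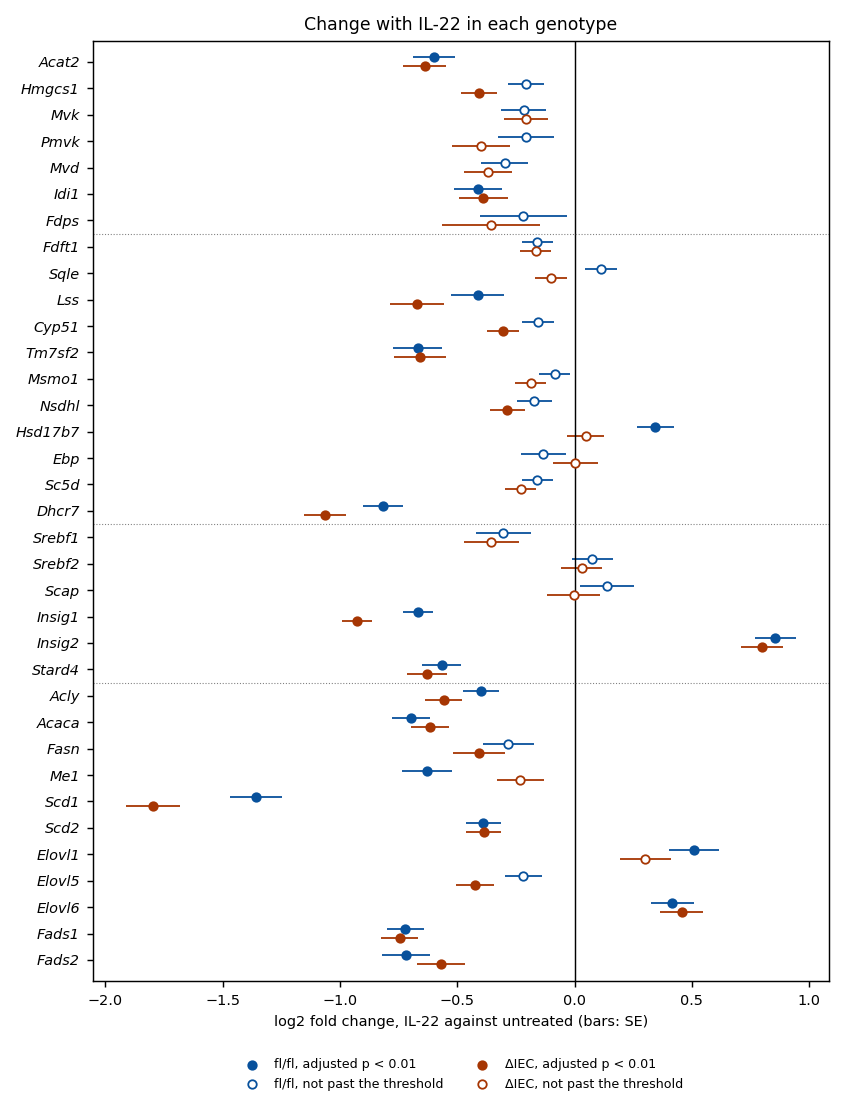
The horizontal axis is the log2 fold change of each gene, IL-22 over untreated, with SE bars, in fl/fl (blue) and ΔIEC organoids (brown), and filled points passed an adjusted p of 0.01. Most points of both colours lie left of 0, with Scd1 at -1.36 and -1.80, and Insig2 is the rightmost at 0.86 and 0.80.

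The IL-22 changes were largely shared between the genotypes. Of the 35 genes, 13 were lower in both (37.1%, against 5.45% of all tested genes), which is 92.9% of those lower in fl/fl and 72.2% of those lower in ΔIEC organoids, 2 were higher in both (Insig2 and Elovl6) and 12 passed in neither. The genotypes share no culture, and 32 of 35 genes had the same sign in both. The log2 fold changes of the 35 correlated at r = 0.941 between genotypes, across genes, which are not independent. Neither value was worked out over all tested genes, so neither sets the 35 apart. By organoid line, 26 of 35 genes (74.3%, against 29.2% of all tested genes) were lower with IL-22 in each of the 4 lines and 3 (8.57%, against 26.0%) were higher in each, namely Insig2, Elovl1 and Elovl6. The 6 others (Sqle, Hsd17b7, Ebp, Srebf2, Scap and Me1) were mixed. Treated cultures all lay below untreated ones for 17 of the 35 genes in fl/fl (15.4% of all tested genes did so) and for 23 in ΔIEC organoids (13.2%). When the 2 cultures of a line were summed to leave 2 samples per group, 6 genes fell and 1 rose in fl/fl, and 4 fell and 1 rose in ΔIEC organoids. Of the 13871 genes tested in that fit, 187 fell and 356 rose in fl/fl and 250 fell and 385 rose in ΔIEC organoids. Without line KO2, the second ΔIEC line, 9 of the 35 fell in ΔIEC organoids, beside 418 of all 12937 genes then tested (961 of 12559 with it). Without the first treated ΔIEC culture 17 did, beside 945 of 12741.

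Cell type and proliferation markers moved with IL-22 as well. The summed level of 12 enterocyte markers went from 5150 to 5824 CPM over untreated fl/fl cultures to 3038 to 3401 CPM over treated ones, with 7 markers lower and 1 higher, and in ΔIEC organoids from 4946 to 5839 CPM to 2768 to 3576 CPM, with 5 lower and 1 higher. Of 8 stem cell markers 3 fell in fl/fl and 6 in ΔIEC organoids (summed level 1775 to 2203 CPM against 960.0 to 1075 CPM, and 2377 to 2629 CPM against 1044 to 1369 CPM). Of 12 proliferation genes 11 fell in fl/fl and 5 in ΔIEC organoids (1542 to 2137 CPM against 1073 to 1348 CPM, and 2326 to 2489 CPM against 1750 to 2178 CPM). Paneth markers had 2 of 8 higher and none lower in each genotype, goblet markers 3 higher and 1 lower of 8 in fl/fl and 2 and 2 in ΔIEC organoids, enteroendocrine markers 2 higher and 1 lower of 8 in fl/fl and 1 and 1 in ΔIEC organoids, and tuft markers 1 higher of 3 tested in each. The part of these shifts in the changes of the lipid genes was not tested. In such bulk cultures, fewer cells of a type and less RNA per cell cannot be told apart.

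Whether the response to IL-22 differed between genotypes was tested directly, as the ΔIEC change minus the fl/fl change. None of the 35 genes passed the threshold by edgeR, nor by DESeq2, and 2 of all 12559 did by edgeR (0.0159%). At an unadjusted p under 0.05, edgeR named 5 of the 35 and 912 of all tested genes. These were Scd1 (-0.44 ± 0.16, 95% interval -0.78 to -0.10), Me1 (0.40 ± 0.15, 0.08 to 0.72), Hsd17b7 (-0.30 ± 0.11, -0.54 to -0.05), Insig1 (-0.26 ± 0.089, -0.46 to -0.07) and Sqle (-0.21 ± 0.095, -0.42 to -0.01), with adjusted p from 0.516 to 0.641. The values below 0 mean a lower treated-to-untreated ratio in ΔIEC organoids. Scd1, Insig1, Hsd17b7 and Sqle were of that kind and Me1 was not. Of the 35 genes 26 had a difference below 0, with a median of -0.07 beside 0.03 over all tested genes. That median was -0.17 without line KO2 and -0.13 without line WT2, beside -0.02 and 0.03 over all genes tested in those fits. For Acaca the interval ran from -0.17 to 0.33, for Fads1 from -0.27 to 0.22, for Insig2 from -0.33 to 0.22 and for Scd2 from -0.23 to 0.23.

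Between genotypes, ΔIEC organoids had less of a set of these transcripts. Untreated, 5 of 35 genes were lower in ΔIEC organoids and none higher (5.98% and 3.78% of all tested genes were), and with IL-22 12 were lower and 2 higher (9.84% and 9.91%). The 5 lower untreated were Scd2, Stard4, Elovl5, Insig1 and Acly, and all 5 were lower with IL-22 too. From the values given above, untreated Scd2 did not overlap between genotypes and was 0.73 of the fl/fl level (log2 -0.45 ± 0.074, adjusted p = 0.000414). Stard4 was 0.75 of it (-0.42 ± 0.083, adjusted p = 0.00164), Elovl5 0.79 (-0.35 ± 0.079, adjusted p = 0.00432), Insig1 0.83 (-0.27 ± 0.063, adjusted p = 0.00566) and Acly 0.81 (-0.30 ± 0.078, adjusted p = 0.00959), none of them with overlapping groups. Untreated, the genotypes did not overlap for 11 of the 35 genes with ΔIEC lower and for 3 with ΔIEC higher. That share over all tested genes was not worked out, so lack of overlap does not set the 5 genes apart. Dhcr7, Scd1 and Scap were short of the threshold (-0.31 ± 0.084, adjusted p = 0.0141, -0.41 ± 0.11, adjusted p = 0.0121 and 0.40 ± 0.11, adjusted p = 0.018). Acly lost its call in 18 of 25 alternative fits, Insig1 in 13 and Elovl5 in 9. None of the 35 passed without line KO2, where 425 of all 12937 genes were lower and 263 higher. None of them passed with the cultures of a line summed, where 7 of all 13871 genes were lower and 3 higher. Without line KO1 or without line WT2, 2 of the 35 were lower, beside 319 of 12876 and 948 of 12785 genes. Also 2 were lower without the first or second untreated ΔIEC culture or the first untreated fl/fl culture (410, 499 and 519 of all genes). The count was 3 without replicate 3 of the untreated ΔIEC group or replicate 3 or 4 of the untreated fl/fl group (551, 769 and 656 of all genes).

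In IL-22–treated organoids the genes lower in ΔIEC came from each branch. In sterol synthesis they were Dhcr7 (-0.55 ± 0.088, adjusted p = 0.000117), Cyp51 (-0.36 ± 0.067, adjusted p = 0.000443), Hmgcs1 (-0.36 ± 0.076, adjusted p = 0.00155), Sqle (-0.30 ± 0.067, adjusted p = 0.00212), Lss (-0.48 ± 0.12, adjusted p = 0.00357) and Msmo1 (-0.26 ± 0.066, adjusted p = 0.00561). Treated Sqle stood at 518, 534, 547 and 496 CPM in fl/fl and 437, 396, 435 and 435 CPM in ΔIEC organoids, without overlap. Among regulators and carriers they were Insig1 (-0.53 ± 0.064, adjusted p = 9.3e-06) and Stard4 (-0.49 ± 0.084, adjusted p = 0.000252). In the fatty acid branch they were Scd1, at 0.56 of the fl/fl level (-0.85 ± 0.11, adjusted p = 2.29e-05), Elovl5 (-0.56 ± 0.081, adjusted p = 4.83e-05), Scd2 (-0.45 ± 0.075, adjusted p = 0.000186) and Acly (-0.46 ± 0.078, adjusted p = 0.000211). Me1 was 1.61-fold higher (0.69 ± 0.11, adjusted p = 9.15e-05), with all treated ΔIEC cultures above all treated fl/fl ones. With IL-22, the genotypes did not overlap for 17 of the 35 genes with ΔIEC lower, Sqle among them, and 2 with ΔIEC higher. The share over all tested genes was not worked out here either. Ebp, a sterol isomerase, was 1.28-fold higher (0.36 ± 0.10, adjusted p = 0.00722), a call lost in 15 of 25 alternative fits, as Msmo1 lost its in 13 and Lss in 8. Genes that fell with IL-22 in both genotypes were not all lower in ΔIEC organoids. Fads1 and Acaca did not pass the threshold between genotypes after treatment (95% intervals -0.17 to 0.17 and -0.13 to 0.23). None of these 14 passed when the cultures of a line were summed, which leaves 2 samples per group, while 132 of all 13871 genes were lower and 56 higher in that fit. Without the first treated ΔIEC culture, 11 genes were lower and 2 higher. Over all genes, 1009 were then lower and 1073 higher of 12741, from 1236 and 1245 of 12559 with it.

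**Figure D4:**
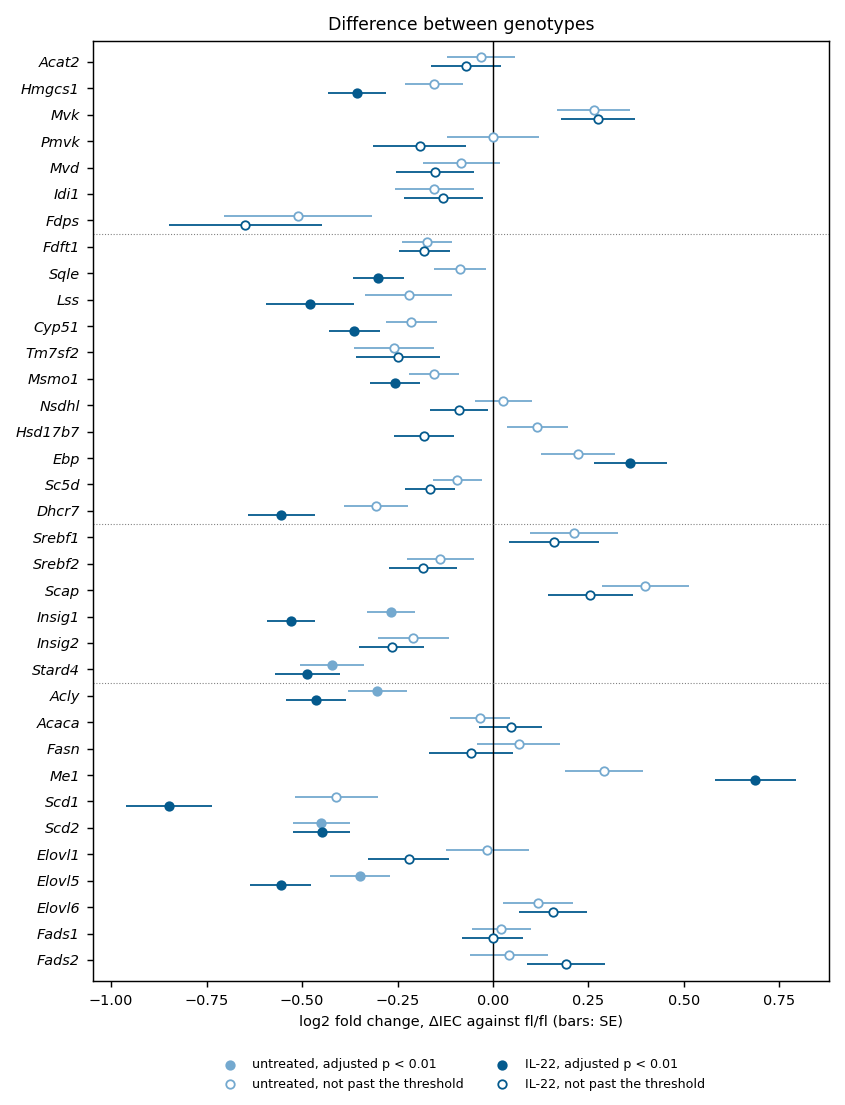
The horizontal axis is the log2 fold change of each gene, ΔIEC over fl/fl, with SE bars, in untreated (light) and IL-22–treated organoids (dark), and filled points passed an adjusted p of 0.01. Scd1 lies furthest left with IL-22 at -0.85, Me1 furthest right at 0.69, and Acaca and Fads1 sit close to 0 in both.

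Markers of other cell types differed between genotypes beside these values. Untreated, 4 of 8 Paneth markers, 4 of 8 goblet markers and 2 of 8 enteroendocrine markers were lower in ΔIEC organoids and none higher, and 4 of 12 proliferation and 3 of 8 stem cell markers were higher and none lower. The Paneth sum was 5635 to 7979 CPM in fl/fl and 3170 to 4158 CPM in ΔIEC organoids, the goblet sum 2128 to 3360 CPM against 1517 to 2021 CPM, and the proliferation sum 1542 to 2137 CPM against 2326 to 2489 CPM. With IL-22, 6 Paneth, 5 goblet and 4 enteroendocrine markers were lower and 10 proliferation markers higher, with a Paneth sum of 7157 to 9576 CPM against 4005 to 4825 CPM and a proliferation sum of 1073 to 1348 CPM against 1750 to 2178 CPM. Enterocyte markers had 1 higher and 1 lower of 12 untreated and 3 higher with IL-22, when stem cell markers had 3 higher and 1 lower. Their part in the genotype differences of the lipid genes was not tested.

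Genes around the pathway, from lists chosen with earlier results of these data known, gave some context. Of 14 tested genes of sterol export, storage, uptake and LXR, 4 fell with IL-22 and none rose in each genotype, by count and name the same 4. Abcg5 and Abcg8, the paired transporter that returns sterols to the gut lumen, went from 169 ± 21.7 CPM to 73.3 ± 12.4 CPM and from 146 ± 15.3 CPM to 65.6 ± 10.7 CPM in fl/fl organoids (-1.19 ± 0.17, adjusted p = 1.71e-05 and -1.14 ± 0.14, adjusted p = 6e-06). In ΔIEC organoids they went from 95.1 ± 12.6 CPM to 40.9 ± 13.7 CPM and from 88.7 ± 13.7 CPM to 39 ± 9.32 CPM (-1.23 ± 0.18, adjusted p = 3.11e-05 and -1.20 ± 0.16, adjusted p = 7.73e-06). Scarb1, a lipoprotein receptor, changed by -1.08 ± 0.15, adjusted p = 2.07e-05 and -1.45 ± 0.17, adjusted p = 1.72e-06, and the lysosomal sterol carrier Npc2 by -0.54 ± 0.10, adjusted p = 0.00026 and -0.42 ± 0.10, adjusted p = 0.00298. Of 19 tested further lipid synthesis genes, 5 fell and 3 rose in fl/fl and 8 fell and 3 rose in ΔIEC organoids. Acss2, which makes acetyl-CoA from acetate, changed by -0.41 ± 0.077, adjusted p = 0.000437 and -0.55 ± 0.079, adjusted p = 2.42e-05, and the acyl-CoA synthetase Acsl3 by -0.65 ± 0.073, adjusted p = 1.83e-06 and -0.75 ± 0.075, adjusted p = 3.2e-07. Gpam, which starts glycerolipid synthesis, changed by -0.77 ± 0.11, adjusted p = 2.56e-05 and -0.95 ± 0.12, adjusted p = 3.86e-06. Idh1, a cytosolic source of NADPH, rose by 0.59 ± 0.090, adjusted p = 5.39e-05 and 0.87 ± 0.090, adjusted p = 4.68e-07. Of 6 genes of SREBP cleavage and ER degradation none passed in fl/fl, and only Erlin1 did in ΔIEC organoids (-0.50 ± 0.12, adjusted p = 0.00377).

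Between genotypes the same lists gave, untreated, 5 of 14 export and uptake genes lower and none higher, among them Soat1, which stores sterols as esters (-0.52 ± 0.085, adjusted p = 0.000356), and Scarb1 (-0.86 ± 0.15, adjusted p = 0.000663). Of the 19 further synthesis genes 3 were lower and 2 higher untreated. Slc25a1, the mitochondrial citrate exporter that feeds Acly, was lower (-0.70 ± 0.10, adjusted p = 0.000163), and the NADPH-making enzymes G6pdx (0.51 ± 0.087, adjusted p = 0.000525) and Pgd (0.61 ± 0.11, adjusted p = 0.000627) were higher. With IL-22, Slc25a1 was at 547 ± 57.7 CPM in fl/fl and 305 ± 46.7 CPM in ΔIEC organoids (-0.84 ± 0.11, adjusted p = 1.33e-05), and Mlxipl, the carbohydrate-responsive factor ChREBP, was at 198 ± 82.4 CPM and 52.6 ± 10.4 CPM (-1.91 ± 0.24, adjusted p = 1.15e-05). Counts with IL-22 were 5 lower and 1 higher of the 14 and 6 lower and 3 higher of the 19. Of the 6 genes of SREBP cleavage and ER degradation 1 was higher in ΔIEC organoids at each treatment, Rnf139 untreated (0.43 ± 0.10, adjusted p = 0.00703) and the protease gene Mbtps1 with IL-22 (0.44 ± 0.080, adjusted p = 0.000366).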

How the data were processed

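Small intestinal organoid RNA was sequenced in 16 cultures. Per the study's methods and processing notes, the authors trimmed paired-end reads with cutadapt, used TopHat2 for alignment to mouse genome GRCm38 (mm10) and HTSeq for gene counting, and deposited raw whole-number counts. The strand setting and annotation release are not given in the sources used here. Reads assigned to genes made up 36.27% to 38.33% of each culture's table total, the summary lines that name no gene were left out, and 0 columns belonged to other samples. Symbols, positions and exon lengths came from GENCODE M21, which paired 99.48% of 49585 gene identifiers by number without version. Gene counts ranged from 2135000 to 5574860 per culture, and intervals cover the spread between cultures only.

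Counts were tested in R 4.3.3 with edgeR 4.0.16 (filterByExpr over the 4 groups, TMM, glmQLFit and glmQLFTest on 1 fit with a mean per group, two-sided, Benjamini-Hochberg over all 12559 genes, threshold 0.01). SE is the absolute log2 fold change over the square root of F, and 95% intervals use it with t on 12 degrees of freedom. Per-line changes compare mean CPM of the 2 cultures with a pseudocount of 0.01 CPM. Shared stretches are 100-base windows of a gene's transcripts also found in another gene's. The steps were tested on simulated data. The members, their roles and the marker and context lists (enterocyte, stem, Paneth, goblet, enteroendocrine, tuft, immune, stromal and endothelial, proliferation; sterol export, further synthesis, SREBP cleavage) were chosen with earlier results of these data known. Values in every culture are given for genes past the threshold, at most 12 per comparison by smallest p, of lists at most 4 genes per comparison. Promoters were printed for genes past the threshold that hold the sterol regulatory element core, with at most 2 others.

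Lines are numbered in the labels, so treated and untreated cultures of a line come from the same source. Across genes, deviations from group means correlated at 0.26 to 0.44 within fl/fl lines and -0.43 to -0.22 between them, and at 0.06 to 0.32 and -0.35 to -0.08 in ΔIEC organoids. A line exists in 1 genotype only, and a block for line was therefore fitted for IL-22 changes and the interaction only. Other alternatives were DESeq2 1.42.0, RLE scaling, no filter on low counts, a threshold of 0.05, summed cultures of each line, a fit restricted to the groups compared, and each culture and line left out in turn.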

Additional observations from a re-analysis of the deposited data

Results flagged for a closer look

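In each group of 4 cultures, the highest and lowest culture of each gene were compared with the other 3 by Dixon's test, and 3 of 140 gene and group pairs stood out, where chance gives about 1 in 20. Sqle, squalene epoxidase, was at 396 CPM in the second IL-22–treated ΔIEC culture against 435 to 437 CPM in the other 3. Msmo1, a sterol demethylation enzyme, was at 494 CPM in replicate 4 of the untreated ΔIEC group against 453 to 457 CPM. Elovl1, the elongase of very long chains, was at 104 CPM in the third untreated fl/fl culture against 114 to 116 CPM.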

How the results depend on the processing

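No gene past the threshold changed sign under any alternative, while some genes short of it did, such as Ebp with IL-22 in ΔIEC organoids. Of the alternative fits of single genes, 4349 kept their side of the threshold, 205 lost and 66 gained a call. With organoid line as a replicate block, 18 genes fell and 4 rose with IL-22 in fl/fl and 22 fell and 3 rose in ΔIEC organoids, the interaction stayed at 0 of the 35, and the genes that changed call are named in the report. Calls over all 12559 genes also rose with the block, to 1957 lower and 1880 higher in fl/fl (from 1279 and 1329) and to 1471 and 1727 in ΔIEC organoids (from 961 and 1234), and to 41 and 15 for the interaction. None of the calls gained with the block held in the fit on summed cultures. With the cultures of a line summed, 6 fell and 1 rose in fl/fl and 4 fell and 1 rose in ΔIEC organoids, and 0 of the 35 differed between genotypes at either treatment. The smaller number of samples is part of that alternative. Between untreated genotypes the lower count was 8 with DESeq2 or a threshold of 0.05 and 3 without a filter. Over all genes it was 860 with DESeq2, 1438 at 0.05 and 1092 of 25406 without a filter, from 751 of 12559. The higher count of the 35 (0 in the report) was 1 without a filter, at 0.05 or with only the compared groups. Over all genes it was 748 of 25406, 1121 of 12559 and 450 of 12143 in that order, from 475 of 12559. With only the compared groups, 1 of the 35 was higher in treated ΔIEC organoids, beside 912 of all 11907 genes then tested (1245 of 12559 in the main fit).

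With a culture or line left out, genes lower with IL-22 numbered 10 to 16 in fl/fl and 9 to 19 in ΔIEC organoids. Genes higher numbered 1 to 4 and 1 to 2. Over all tested genes, the lower counts ran from 493 to 1382 in fl/fl and from 418 to 1125 in ΔIEC organoids. The higher counts over all genes ran from 590 to 1445 and from 495 to 1366. The higher count in fl/fl was 1 without line WT1 and 2 without line WT2, and in ΔIEC organoids 1 without line KO1. Over all genes these counts were 973 of 12852, 590 of 12785 and 708 of 12876. The interaction gave 0 to 0. Between genotypes, lower genes numbered 0 to 6 untreated and 9 to 13 with IL-22. Higher genes numbered 0 to 1 untreated (1 without the first treated ΔIEC culture) and 1 to 2 with IL-22. The count of 1 with IL-22 came from leaving out any 1 of the 4 lines or of 8 cultures. Over all tested genes, lower counts between genotypes ran from 319 to 948 untreated and from 550 to 1313 with IL-22. Higher counts over all genes ran from 110 to 691 and from 400 to 1359. The calls for Scd1, Dhcr7, Insig1, Insig2 and Fads1 with IL-22 held in all 26 alternatives in both genotypes. The lowest count of any of the 35 genes was 31, for Fdps, which also shares sequence with other genes.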
